A study of Mus musculus with 8 samples.

Results

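Macrophages that carried complement C1q but little Spp1, Arg1 or MHC class II transcript were examined in mouse pancreatic cancers growing in the pancreas and in the liver. They were chosen by measured values. A cell needed at least 10 UMIs of C1qa, C1qb and C1qc together per 10000 UMIs, with fewer than 20 of the keratins Krt8, Krt18 and Krt19. It also had fewer than 3 of 5 cell cycle genes detected, Cd5l under 5, Spp1 under 20, Arg1 under 20 and H2-Ab1 under 40 per 10000. UMIs are barcoded transcript molecules. Of 9895 cells called in the series, 901 met the rule and are called low macrophages here: 267 of 2277 cells from primary tumors and 634 of 7618 from liver tumors. The other C1q-positive cells, 1205 and 1996, are those that met the C1q and keratin limits but not the rest. The remaining called cells, 805 and 4988, missed the C1q or the keratin limit. They are called C1q-negative here, though keratin-positive cells among them can carry C1q.

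All samples came from C57BL/6 mice that had received 100000 FC1242 cells, a KPC pancreatic cancer line, placed in the pancreas for primary tumors or given so that tumors formed in the liver. Tumors were taken after 3 weeks, with no drug treatment named in the labels. CD45+ cells sorted from tumors gave 1 10x single-cell library for each site, and 3 bulk RNA-seq libraries per site were made from whole tumor tissue. With 1 cell library per site, differences between sites cannot be told apart from differences between libraries, so values from cells carry exact Poisson or binomial 95% intervals, which cover counting error only, and no test.

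C1q is the recognition part of the classical complement pathway, and in mouse tissues its 3 chains are made mainly by macrophages. Tumor macrophages arise from blood monocytes, which enter tissue through the chemokine receptor CCR2, and from cells that settled in the organ earlier. Spp1 (osteopontin), Arg1 (arginase 1) and MHC class II are often used to sort tumor macrophages into states, and the cells described here lay below a limit for each of them.

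Low macrophages made up 18.1% of the C1q-positive cells of the primary library (16.2% to 20.2%) and 24.1% of those of the liver library (22.5% to 25.8%). As a share of all called cells they were 11.7% and 8.32%. The called cells included 266 primary and 3192 liver keratin-positive cells below the C1q limit. The bases of these shares are therefore unlike, and they are not shares of immune cells. The Spp1-high and H2-Ab1-high classes around them differed more. Cells with Spp1 at or above its limit were 3.40% of C1q-positive cells in the primary and 29.2% in the liver library, Spp1-low cells with high Arg1 21.7% and 16.6%, and cells low in both with high H2-Ab1 52.0% and 21.0%. Cd5l-positive cells numbered 3 and 30, and cycling cells 67 and 210. The mitochondrial limit removed 5208 of 7490 primary and 4887 of 12505 liver barcodes with enough UMIs. With that limit doubled to 20%, the primary share was 22.2%.

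**Figure D1:**
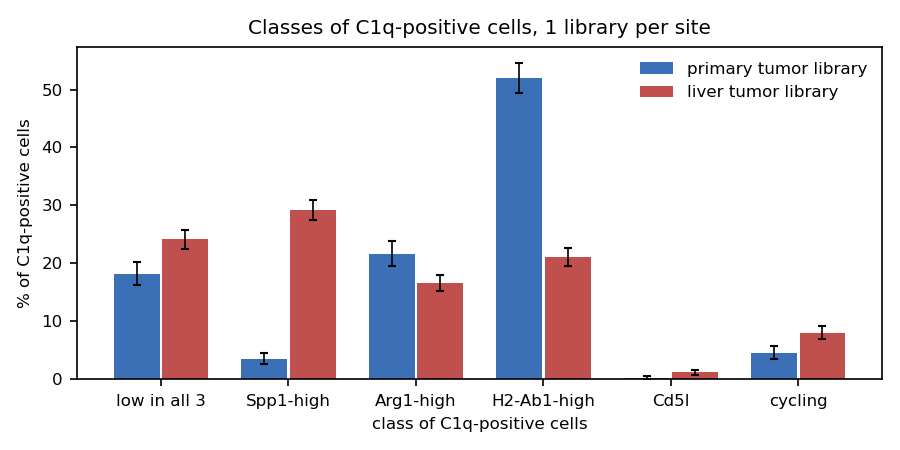
Share of C1q-positive cells in each class (y axis, percent) for the primary library (blue) and the liver library (red), with exact binomial 95% intervals as error bars. The low class holds 18.1% and 24.1%, while the Spp1-high share goes from 3.40% to 29.2% and the H2-Ab1-high share from 52.0% to 21.0%.

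Many of the cells lay near the limits of the rule. H2-Ab1, an MHC class II beta chain, had a median of 25.8 UMIs per 10000 in primary and 12.3 in liver low macrophages. Between 20 and 40 lay 172 of the 267 primary cells and 219 of the 634 liver cells, and 218 and 209 cells that missed the rule by this gene alone lay between 40 and 60. For Arg1, 47 primary and 144 liver cells lay between 10 and 20, and 30 and 78 cells just outside, between 20 and 30. For Spp1 the same ranges held 6 and 2 primary cells, and 163 and 75 liver cells. Within these ranges, whose bounds largely fix the medians, H2-Ab1 had medians of 31.2 inside and 50.5 outside in the primary library and of 31.1 and 50.7 in the liver library. No Spp1 UMI was seen in 153 primary and 39 liver cells. Other MHC class II transcripts were still present: Cd74, the invariant chain, stood at 10720 CPM (its UMIs per 1000000, summed over the cells) in primary and 6158 CPM in liver low macrophages, against 21310 and 18730 CPM in the H2-Ab1-high class. Low therefore means below a limit, not absent.

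Most of these cells carried macrophage transcripts. Csf1r, the receptor for the growth factor that maintains macrophages, was at 711 CPM in primary and 531 CPM in liver low macrophages. The other C1q-positive cells held 723 and 440 CPM, and the C1q-negative cells 59.9 and 69.1 CPM. A Csf1r UMI was seen in 89.5% of primary and 88.0% of liver low macrophages. Apoe, a lipid carrier made by macrophages, was at 28310 and 29340 CPM against 1080 and 2798 CPM in C1q-negative cells. Barcodes with 10 to 100 UMIs, which hold free RNA, also carried Csf1r (299 and 250 CPM) and Apoe (12200 and 11930 CPM). Of 20 macrophage identity genes, 0 were 2-fold higher or lower in low macrophages than in the other C1q-positive cells of both libraries. Differences of this size were rare over all genes too (0.162% higher and 0.929% lower), so the count is no check of the label.

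The label held less well near the C1q limit. In all, 22 primary and 78 liver low macrophages had 10 to 20 C1q UMIs per 10000, and their median depths were 2143 and 2260 UMIs, against 11640 and 9926 over all low macrophages. In this range a Csf1r UMI was seen in 27.3% and 34.6% of cells, and 17 and 41 of them carried at least 3 UMIs of a neutrophil list of 7 genes. S100a8, a subunit of the neutrophil protein pair calprotectin, was at 7437 and 4781 CPM there, and its partner S100a9 at 8507 and 6505 CPM. From 80 C1q UMIs upward, 97.6% to 100% of cells had a Csf1r UMI. The 20 cells richest in the pair held 97.3% of its UMIs in primary and 78.1% in liver low macrophages. Whether such barcodes are mixtures was not tested. Values at a C1q minimum of 40, chosen after these counts were seen, are given below where a result rests on such cells.

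**Figure D2:**
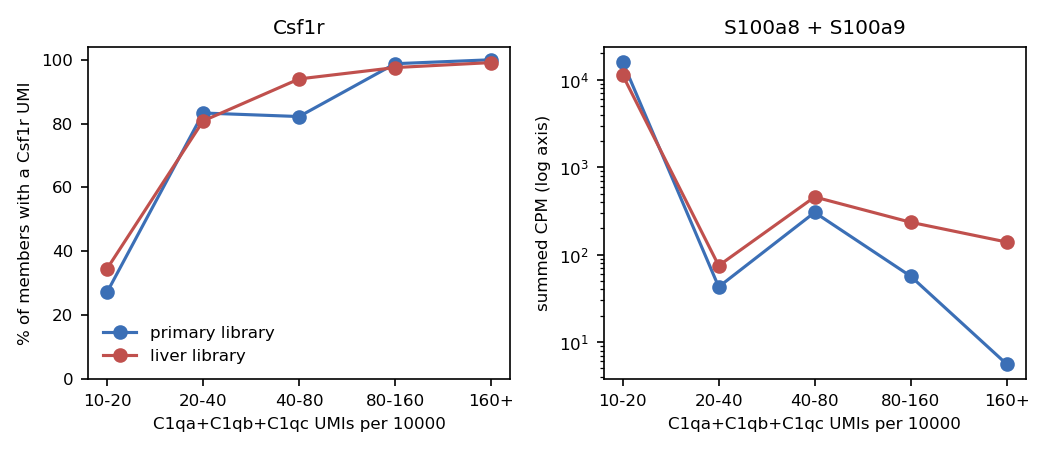
Low macrophages split by their C1q UMIs per 10000 (x axis) in the primary (blue) and liver (red) library. The left panel gives the percent with a Csf1r UMI, which goes from 27.3% and 34.6% in the lowest range to 100% and 99.1% in the highest, and the right panel the summed S100a8 and S100a9 level in CPM on a log axis, highest in the 10 to 20 range.

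Few genes set the low macrophages above their neighbors. Of 11082 genes compared, 18 (0.162%) were at least 2-fold higher than in the other C1q-positive cells in both libraries, and 103 (0.929%) were at least 2-fold lower. The higher genes included S100a8, S100a9, Cxcr2 (a neutrophil chemokine receptor), Retnlg and the T cell genes Trbc1 and Cd8a. Only 3 of the 18 remained at a C1q minimum of 40, against 95 of the 103 lower ones. The lower genes partly followed cell division, such as Kif11, Nusap1 and Pclaf, since cycling cells belong to the other group. A comparison with the Spp1-high, Arg1-high and H2-Ab1-high classes alone, at a C1q minimum of 40, left 7 higher genes (0.0652% of 10731) and 38 lower ones (0.354%). The 7 still held S100a9 and the T and NK cell genes Cd3g, Nkg7 and Trbc1.

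Beside those 3 classes, the list of arginine and nitric oxide genes held 3 genes of 8 that were 2-fold lower in both libraries, and no other of the 18 lists examined held more than 2. Its median log2 ratio was -1.12 in the primary and -0.24 in the liver library. The monocyte list was at -1.17 in the primary library and the glycolysis and hypoxia list at -0.51 in the liver library, so this list was not the lowest by its median. Retnla, a secreted product of alternatively activated macrophages that does not itself handle arginine, was 22.3-fold lower in the primary and 3.15-fold lower in the liver library. Nos2, inducible nitric oxide synthase, was 4.99- and 4.73-fold lower, and Slc7a2, which imports arginine, 3.46- and 2.37-fold lower. Low Arg1 was part of the choice of cells, so these genes vary with a value that the rule used. Olr1, a receptor for oxidized lipoprotein, was 14.3- and 8.74-fold lower. These Olr1 ratios were taken at the raised C1q minimum of that comparison. The levels given next cover all cells of each class from the C1q limit of the rule upward, so the ratios do not follow from them. Olr1 in low macrophages was at 1.55 and 2.15 CPM in the primary and liver library. It was at 38.9 and 14.2 CPM in the Spp1-high, 26.8 and 23.3 in the Arg1-high and 1.88 and 2.57 in the H2-Ab1-high class. Ccl17, a chemokine of antigen-presenting cells, was at 0.311 and 17.8 CPM against 28.9 and 91.3 CPM in the H2-Ab1-high class.

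Small and shared excesses were seen for a few macrophage genes. Slco2b1, an organic anion transporter of resident-type macrophages, was 1.66-fold higher than in the 3 classes in the primary library (1.22 to 2.22) and 1.78-fold higher in the liver library (1.38 to 2.30). Fcrls, an Fc receptor-like gene, was 1.40-fold (1.18 to 1.66) and 1.46-fold (1.25 to 1.69) higher. Serinc3, a membrane protein gene, was 1.37-fold higher in both. For Slco2b1 the H2-Ab1-high class was close, at 13.4 and 16.2 CPM beside 19.6 and 14.9 CPM in low macrophages. Those levels cover all cells of each class from the C1q limit of the rule upward. Lower genes outnumbered higher ones in each of these comparisons.

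Between the sites the low macrophages differed widely. Of 10161 genes compared, 1072 (10.6%) were at least 2-fold higher in the liver library and 1001 (9.85%) at least 2-fold lower. The other C1q-positive cells gave similar counts, 1284 (10.5%) higher and 1139 (9.34%) lower of 12194. Of the 1068 higher genes that were compared in both, 591 were also 2-fold higher in the other C1q-positive cells and 48 were not higher there. Of 996 lower genes, 603 were shared in this sense and 14 were not lower. At a C1q minimum of 40, 942 of the higher and 919 of the lower genes were kept.

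Transcripts of other tissues headed both ends of the ranking. Of the 12 genes with the largest excess in the liver library, 9 were transcripts of epithelial cells, such as Gkn1, Tff1 and Tspan8, and were higher in C1q-negative cells. The 12 largest deficits were Tgfb3 and 11 acinar enzyme and Reg genes, whose UMIs in primary low macrophages numbered 3236, with 83.4% of them in 3 cells. In the liver library those 11 genes had 5 UMIs. The genes described next were ranked among those at least 2-fold above the C1q-negative level, a limit set after these values were seen. Names outside that ranking and the list rule were also picked after their values were seen.

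Monocyte genes were mostly higher in liver low macrophages. Of 18 compared, 15 were at least 2-fold higher and 1 lower there, with a median log2 difference of 1.83, while the other C1q-positive cells had 4 higher and 2 lower with a median of 0.76. The median over all compared genes was 0.03, with 10.6% higher and 9.85% lower in low macrophages. Ccr2 was at 87.6 CPM in primary (77.7 to 98.4) and 534 CPM in liver low macrophages (516 to 552), 6.09-fold apart (5.40 to 6.91). The primary level was below that of near-empty barcodes, 135 CPM. In the other C1q-positive cells it was 1.48-fold apart. The primary low macrophages held less Ccr2 than each neighboring class, which stood at 251 to 279 CPM. Among liver classes, only the H2-Ab1-high cells, at 745 CPM, exceeded them. Ms4a4c, a membrane protein gene of inflammatory monocytes, went from 16.8 to 82.8 CPM (4.94-fold, against 1.59-fold in the others), and Chil3, a chitinase-like secreted protein, from 141 to 369 CPM. Chil3 was lower in the liver library among the other C1q-positive cells, at 331 and 243 CPM.

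With each cell thinned to 1500 UMIs, a Ccr2 UMI was seen in 3.75% of primary and 41.6% of liver low macrophages, against 6.34% and 11.1% of C1q-negative cells, which can include monocytes that express it. Keratin-positive cells below the C1q limit, a class that should lack the gene and was added after these shares were seen, had a Ccr2 UMI in 0 of 266 primary cells, which allows a share of up to 1.13%, and in 4.51% of 3192 liver cells. Median depths were 11640 and 9926 UMIs in low macrophages and 5820 and 4077 UMIs in the keratin-positive cells. Unthinned, the shares in low macrophages were 18.7% and 68.3%. The primary and liver low macrophages differ in their H2-Ab1 distribution, and the gap was present on either side of it: at 0 to 20 H2-Ab1 UMIs Ccr2 was at 39.3 and 505 CPM, and at 20 to 40 it was at 107 and 584 CPM. Summed over the list, monocyte genes went from 3595 to 7792 CPM, and from 7203 to 13100 CPM in near-empty barcodes, so free RNA of these genes moved the same way. S100a6 and Plac8 were also far higher in C1q-negative cells (10440 and 23770 CPM, and 1496 and 2655 CPM) than in low macrophages (511 and 2800 CPM, and 94.4 and 518 CPM). For Ccr2 the near-empty level in the liver library was 209 CPM. The part of free RNA in these differences was not tested. Thbs1, a matrix glycoprotein on the same list, was the 1 gene that was lower.

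**Figure D3:**
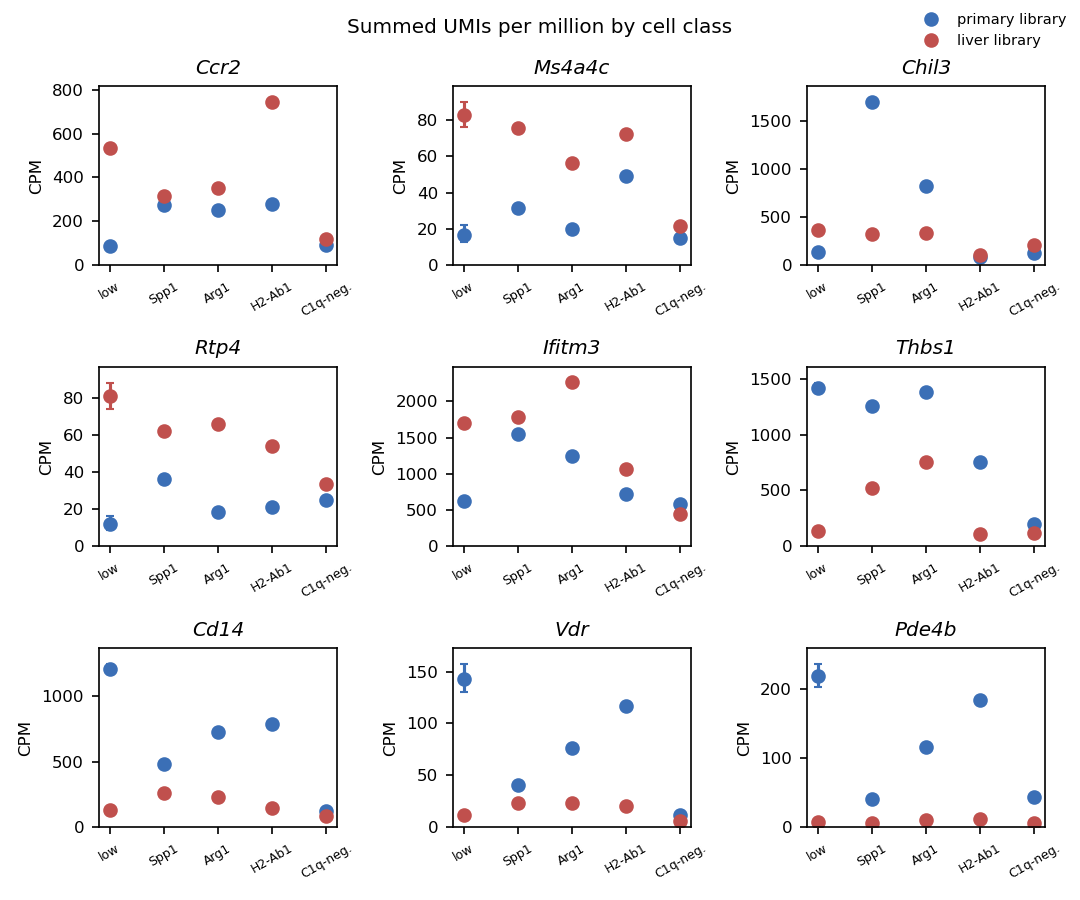
Summed level of 9 genes in CPM (y axes, from 0) in the low, Spp1-high, Arg1-high and H2-Ab1-high classes and in C1q-negative cells of the primary (blue) and liver (red) library, with Poisson 95% intervals on the low class. Ccr2 is at 87.6 and 534 CPM in the low class, and Thbs1 at 1419 and 136 CPM.

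Interferon response genes were higher in liver low macrophages as well. Of 20, 14 were at least 2-fold higher and 0 lower, beside 10.6% and 9.85% of all compared genes. Their median log2 difference was 1.37. The other C1q-positive cells had 8 higher and 4 lower and a median of 0.82. In low macrophages the summed level of the list went from 1667 to 3789 CPM. In primary tumors this was below the other classes, which held 2685 to 2992 CPM, and in liver tumors within their range of 3008 to 4036 CPM. Near-empty barcodes held 2007 and 2062 CPM. Rtp4, an interferon-induced chaperone, went from 12.1 to 81.1 CPM (6.70-fold, 4.83 to 9.52), Irf7, the factor that amplifies type I interferon, from 10.6 to 67.9 CPM, and Ifitm3, which blocks virus entry, from 621 to 1708 CPM. Ifit1, which binds foreign RNA, went from 3.11 to 35.9 CPM (11.6-fold, 6.17 to 24.4), Isg15, a ubiquitin-like modifier, from 44.7 to 145 CPM, and Rsad2 (viperin) from 15.5 to 44.9 CPM. Cxcl9, a chemokine that responds strongly to interferon gamma, was near level, at 79.2 and 76.5 CPM. In the other C1q-positive cells Cxcl9 was at 588 CPM in the primary and 73.3 CPM in the liver library.

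The promoters of Ifit1, Isg15 and Rsad2 are shown because these antiviral genes were higher together in the liver library; they were chosen after their values were seen. RefSeq sequence of GRCm38.p6 runs from 250 bases before to 50 bases after the start site, 5′ to 3′ on the gene's strand, with capitals marking GAAA, any 2 bases and GAAA on either strand, a spacing known from interferon-stimulated response elements.
Ifit1, chr19:34640639-34640938, plus strand: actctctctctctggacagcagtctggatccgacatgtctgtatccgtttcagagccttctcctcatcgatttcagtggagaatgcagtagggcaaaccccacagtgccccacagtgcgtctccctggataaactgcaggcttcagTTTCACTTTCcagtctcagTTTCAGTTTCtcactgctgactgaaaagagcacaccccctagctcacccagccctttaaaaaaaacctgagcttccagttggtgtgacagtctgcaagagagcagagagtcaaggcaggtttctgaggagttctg
Isg15, chr4:156200769-156201068, minus strand: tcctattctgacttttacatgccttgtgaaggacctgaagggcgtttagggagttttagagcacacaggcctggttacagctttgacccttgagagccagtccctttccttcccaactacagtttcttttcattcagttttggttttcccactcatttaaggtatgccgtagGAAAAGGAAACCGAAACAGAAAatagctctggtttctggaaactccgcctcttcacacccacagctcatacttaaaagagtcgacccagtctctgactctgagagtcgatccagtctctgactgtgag
Rsad2, chr12:26456403-26456702, minus strand: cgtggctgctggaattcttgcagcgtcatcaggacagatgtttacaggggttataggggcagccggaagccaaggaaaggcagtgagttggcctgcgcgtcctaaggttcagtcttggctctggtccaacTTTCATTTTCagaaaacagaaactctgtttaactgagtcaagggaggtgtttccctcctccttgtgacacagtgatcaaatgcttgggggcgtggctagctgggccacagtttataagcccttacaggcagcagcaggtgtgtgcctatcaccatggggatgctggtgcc
Overlapping matches run together in the Isg15 promoter, which holds 3. Of the 20 interferon list genes, 14 had a promoter in the table and 10 of those held the motif, against 3.44% of all 32851 promoters of the same length (1131 of them). The promoters of Irf7, Oasl2 and Cxcl9, and both start sites of Ifit2, held no match. In low macrophages, liver over primary, Irf7 was 6.43-fold, Ifit2 6.09-fold, Oasl2 2.39-fold and Cxcl9 0.966-fold. Genes with a match ran from 1.09-fold for Stat2 to 11.6-fold for Ifit1. The list was made of interferon response genes, so the share with a match says nothing about these cells.

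Chemokines and secreted factors ran in both directions. Chemokines and their receptors had 4 higher and 4 lower of 15 in low macrophages of the liver library, and 7 higher and 4 lower of 16 in the other C1q-positive cells. Over all compared genes, 10.6% were higher and 9.85% lower in low macrophages, and 10.5% and 9.34% in the others. Counts of a few genes per list therefore say little about a list. Growth and matrix factors had 3 higher and 6 lower of 20, and 2 and 7 in the others. Ccl2, the ligand of CCR2, went from 90.1 to 530 CPM in low macrophages (5.89-fold) and was 7.28-fold higher in the other C1q-positive cells. Lpl, lipoprotein lipase, went from 50.01 to 409 CPM (8.18-fold, against 11.6-fold), and Igf1, insulin-like growth factor 1, from 14.0 to 91.4 CPM (6.54-fold, against 4.68-fold). Ccl8, a chemokine of resident-type macrophages, went the other way, from 508 to 138 CPM, and from 542 to 230.0 CPM in the others. Of 21 lipid-associated and lysosomal genes, 8 were 2-fold higher and 1 lower, with 10 and 1 in the others. The lipid-binding gene Fabp5 went from 907 to 2141 CPM and the lysozyme gene Lyz2 from 4229 to 10680 CPM. Resident-type and scavenger genes did not share the pattern: 1 of 16 was higher and 3 lower in low macrophages, whereas 9 of 19 were higher and 1 lower in the other C1q-positive cells. Pf4, a platelet-factor chemokine of resident-type macrophages, went from 568 to 1034 CPM, and from 569 to 1527 CPM in the others. The Kupffer cell marker list summed to 33.6 and 25.3 CPM in low macrophages, with Clec4f and Vsig4 at 0 UMIs in the primary ones.

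Several genes were far higher in primary low macrophages. Thbs1 was at 1419 CPM (1378 to 1461) against 136 CPM (127 to 145), 10.4-fold apart, and 2.06-fold apart in the other C1q-positive cells. Cd14, the co-receptor for lipopolysaccharide, was at 1206 and 128 CPM, and Vegfa, the angiogenic factor, at 257 and 13.8 CPM. Tgfb3, a transforming growth factor, was at 152 CPM against 1.99 CPM, 76.2-fold apart (44.1 to 144). Il1r2, the decoy receptor for interleukin 1, was at 377 and 29.0 CPM, and Vdr, the vitamin D receptor, at 143 and 12.1 CPM. Pde4b, which breaks down cyclic AMP, was at 219 and 7.82 CPM, Sik1, a salt-inducible kinase, at 177 and 10.6 CPM, and Per1, a clock gene, at 191 and 13.2 CPM. In C1q-negative cells Per1 and Pde4b were lower in the liver library too, at 74.3 and 11.7 CPM and at 44.0 and 6.34 CPM. These genes were also 2-fold or more lower in the other liver C1q-positive cells, from 2.06-fold for Thbs1 to 19.4-fold for Pde4b.

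Immediate-early and hypoxia genes lay on the same side. Of 17 genes of the dissociation stress list, which can be induced while tissue is taken apart, 0 were 2-fold higher and 6 lower in the liver library, with the same counts in the other C1q-positive cells. Over all compared genes, 10.6% were higher and 9.85% lower in low macrophages. Dusp1, a phosphatase on that list, was at 898 and 98.0 CPM in low macrophages and at 336 and 65.4 CPM in C1q-negative cells. Glycolysis and hypoxia genes had 0 higher and 8 lower of 18, again with 8 lower in the others. Gapdh, a glycolytic enzyme, was close to level (2022 and 1962 CPM), while Bnip3, a mitophagy receptor induced by low oxygen, was at 241 and 38.3 CPM. Inflammatory mediators had 0 higher and 7 lower of 16, such as the neutrophil chemokine Cxcl2 at 726 and 114 CPM. The summed level of that list was uneven within the class. Among primary cells at 0 to 20 H2-Ab1 UMIs it was 4902 CPM and at 20 to 40 it was 1792 CPM, against 1354 and 1252 CPM in liver cells. Genes were not counted for each range. At a C1q minimum of 40 the primary sum went from 2676 to 1750 CPM, and the list had 2 higher and 8 lower genes. How far handling of the tissue, or RNA of other cells, entered these values was not tested.

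**Figure D4:**
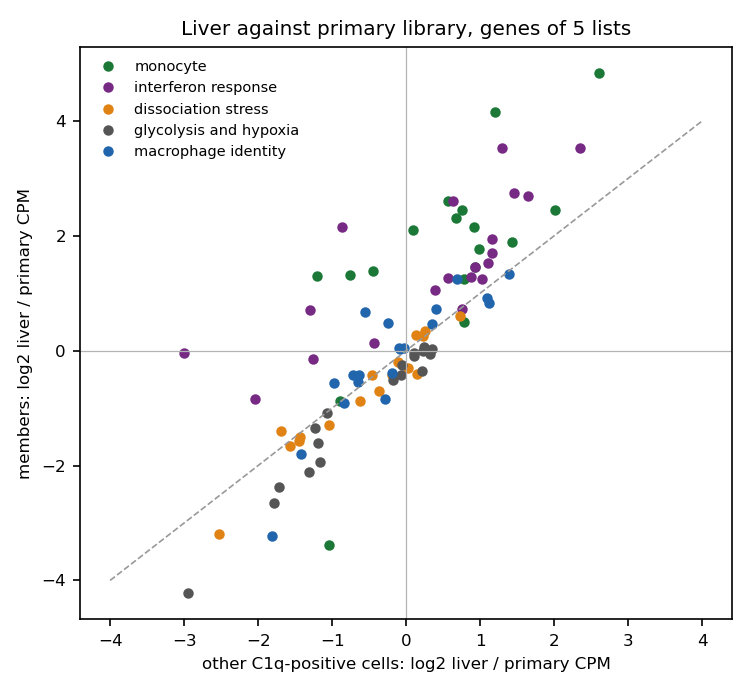
Log2 ratio of the liver to the primary library in low macrophages (y axis, members) against the same ratio in the other C1q-positive cells (x axis) for genes of 5 lists, 1 point per gene, with equality dashed. Monocyte genes lie mostly above the dashed line, with medians of 1.83 and 0.76, while Thbs1 lies far below it.

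Antigen presentation and checkpoint genes mostly stayed within 2-fold. MHC class I genes had 0 of 9 past 2-fold in either direction, such as B2m, the shared light chain, at 2335 and 1580 CPM. MHC class II genes other than H2-Ab1 had 0 higher and 3 lower of 10, a list tied to the rule. Genes of immune inhibitory ligands and receptors had 1 higher and 2 lower of 11. Over all compared genes, 10.6% were higher and 9.85% lower, so such small counts say little about these lists. Cd274 (PD-L1) was at 166 CPM in primary and 33.6 CPM in liver low macrophages, and was 4.51-fold apart in the other C1q-positive cells and 4.94-fold apart here. BTLA and CD200, named in the title of the series for B cells, had 5 and 3 UMIs of Btla and 5 and 6 of Cd200 in all low macrophages. Their partners were measurable: Tnfrsf14, which encodes the BTLA ligand HVEM, was at 5.90 and 2.45 CPM (19 and 16 UMIs), and Cd200r1, the CD200 receptor gene, at 19.0 and 48.9 CPM. Cd200r1 was 2.58-fold apart in low macrophages and 2.76-fold apart in the others.

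The low macrophages were not of 1 kind. Clustering them alone, without integration of the libraries, gave 9 clusters, of which most held cells of nearly 1 library, so a cluster may be a library rather than a type. Cluster 1 held 184 primary and 2 liver cells, 68.9% of the primary low macrophages, and was led by Tgfb3, Pde4b, Thbs1, Vegfa, Sik1 and Cd14. Cluster 9, with 30 primary cells and 1 liver cell, was led by Mmp13 (collagenase 3), Iigp1, Cd72 and Cxcl9, and all of its cells had an Adgre1 (F4/80) UMI. Thbs1 was at 1959 CPM in cluster 1 and 174 CPM in cluster 9, so its high primary level lay in cluster 1.

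Most liver cells lay in 5 other clusters, in which 90% to 98.6% of cells had a Csf1r UMI. Of 9 monocyte markers, 2 were at least 2-fold above the other clusters (on CPM + 10, in at least 10% of cells) in cluster 2, 3 in cluster 4 and 4 in cluster 6, and 0 in clusters 3 and 5. Of 10 macrophage markers, 1 was in cluster 5 and 0 in the other 4. Cluster 2 (173 liver cells and 1 primary cell, 27.3% of liver low macrophages) was led by Ccl2, Ccl7, Vcan and F13a1, with a Ccr2 UMI in 94.8% of its cells. Cluster 3 (133 and 7) was led by Olfml3, Ms4a7 and Cx3cr1, with a Ccr2 UMI in 52.9%. Cluster 4 (110 and 5) was led by Ifit3, Ifit2, Rsad2 and Ifit1. It held 17.4% of liver low macrophages, and Ifit1 was at 138 CPM there and 7.59 CPM in all other low macrophages. Cluster 5 (61 and 9) was led by the lipid genes Fabp4, Gpnmb and Cd36, and cluster 6 (58 and 8) by Hpgd, Chil3, Ccr2 and Gpr183. Cluster 7 (46 and 15) was led by S100a9, S100a8 and Retnlg and cluster 8 (50 and 8) by Ccl5, Gkn1 and Tff1. These last clusters had median depths of 2069 and 2549 UMIs, and 29.5% and 34.5% of their cells had a Csf1r UMI, so they go against the macrophage label. In cluster 8 the erythroid list summed to 24570 CPM and the T cell list to 902 CPM. There, 3 erythroid, 5 T cell and 5 epithelial markers were at least 2-fold above the other clusters. Hemoglobin genes had been kept out of the leading genes.

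The bulk tumors were the only replicated measurement, and they mix all cells of the tissue, so more cells of a type and more RNA per cell cannot be told apart. They held 27481390 to 36743247 reads. Of 16487 genes tested with edgeR's quasi-likelihood test, 2755 (16.7%) were higher and 1032 (6.26%) lower in liver tumors at an adjusted p under 0.05. The lower count was 134 without liver replicate 2, 414 without liver replicate 1 and 606 without primary replicate 3. Macrophage identity genes had 12 higher and 1 lower of 20, but Kupffer cell and hepatocyte markers were higher in 5 of 5 each, and the labels do not say that liver tissue was kept out. Monocyte genes had 7 higher and 4 lower of 18, interferon response genes 8 higher and 0 lower of 20, and hypoxia genes 0 higher and 7 lower of 19. Without liver replicate 2, monocyte genes had 5 higher and 0 lower, interferon response genes 6 higher and hypoxia genes 0 lower. Without liver replicate 1, monocyte genes had 4 higher and 1 lower, interferon response genes 4 higher and hypoxia genes 1 lower. Hypoxia genes had 2 lower without primary replicate 3, monocyte genes 1 lower without liver replicate 3 and 2 lower without primary replicate 3, and interferon response genes 5 higher without primary replicate 1. These counts describe tumors, not low macrophages.

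Ccr2 was at 11.01, 4.56 and 9.55 CPM in the primary tumors and at 24.5, 46.8 and 39.7 CPM in the liver tumors. The groups did not overlap. It rose by 2.19 on the log2 scale (SE 0.36, n = 3 per group, edgeR adjusted p = 0.00334). Csf1r was at 34.7, 47.6 and 24.7 CPM and at 104.6, 124 and 90.7 CPM, and rose by 1.61 (SE 0.27, edgeR adjusted p = 0.0040). In low macrophages its level had been 711 and 531 CPM in the primary and liver library. Igf1, which hepatocytes make in large amounts, was at 12.7, 6.62 and 7.67 CPM and at 493, 577 and 325 CPM, a rise of 5.74 (SE 0.37, edgeR adjusted p = 1.86e-05). All liver values lay above all primary values for these genes.

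Ms4a4c was at 1.003, 0.304 and 1.09 CPM and at 2.52, 4.37 and 2.59 CPM, a log2 difference of 2.01 (SE 0.50, edgeR adjusted p = 0.0237) that was not called without liver replicate 1, 2 or 3 in turn, with adjusted p of 0.0641, 0.111 and 0.0532. Ifitm3 was at 189, 86.0 and 150 CPM and at 557, 342 and 287 CPM, a log2 difference of 1.53 (SE 0.35, edgeR adjusted p = 0.0170), with an adjusted p of 0.0697 without liver replicate 1 and of 0.0501 by limma on log2(FPKM + 1). Rtp4 was at 10.5, 12.5 and 12.8 CPM and at 23.0, 19.0 and 17.2 CPM, 0.76 higher (SE 0.22, edgeR adjusted p = 0.0391), and was not called by limma on log2(FPKM + 1) (adjusted p = 0.0621), without the expression filter (0.0726), or without primary replicate 1 or 3 or any liver replicate (0.0575 to 0.122). A fit with a replicate block did not call Rtp4 either (edgeR adjusted p = 0.0785). The groups did not overlap for these 3 genes. Ifit1 overlapped between groups and was not called (log2 difference -0.24, SE 0.29, edgeR adjusted p = 0.582).

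Of the 9 genes described above as far higher in primary low macrophages, 2 were lower in liver tumors, 1 was higher and 6 were not called, 5 of those with a log2 difference below 0. Cd14 was at 118, 254 and 174 CPM in primary and 68.6, 71.3 and 79.5 CPM in liver tumors, without overlap, a log2 difference of -1.29 (SE 0.30, edgeR adjusted p = 0.0177). It was not called without liver replicate 1 (adjusted p = 0.06003) or 2 (0.0870), or by limma on log2(FPKM + 1) (0.0687). Vdr was at 10.6, 14.3 and 12.9 CPM in primary and 3.50, 6.06 and 6.31 CPM in liver tumors, a log2 difference of -1.22 (SE 0.30, edgeR adjusted p = 0.0230), with adjusted p of 0.0588, 0.0532 and 0.0781 without primary replicate 3, liver replicate 1 and liver replicate 2, and of 0.0559 by limma on log2(FPKM + 1). Pde4b went the other way, at 8.77, 6.62 and 8.18 CPM against 14.5, 22.5 and 18.1 CPM, and rose by 1.27 (SE 0.24, edgeR adjusted p = 0.00648). Thbs1 overlapped, at 167, 83.1 and 106 CPM against 77.3, 110 and 123 CPM, with a log2 difference of -0.15 (SE 0.28, edgeR adjusted p = 0.733). Tgfb3 overlapped as well (-0.43, SE 0.47, edgeR adjusted p = 0.552).

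**Figure D5:**
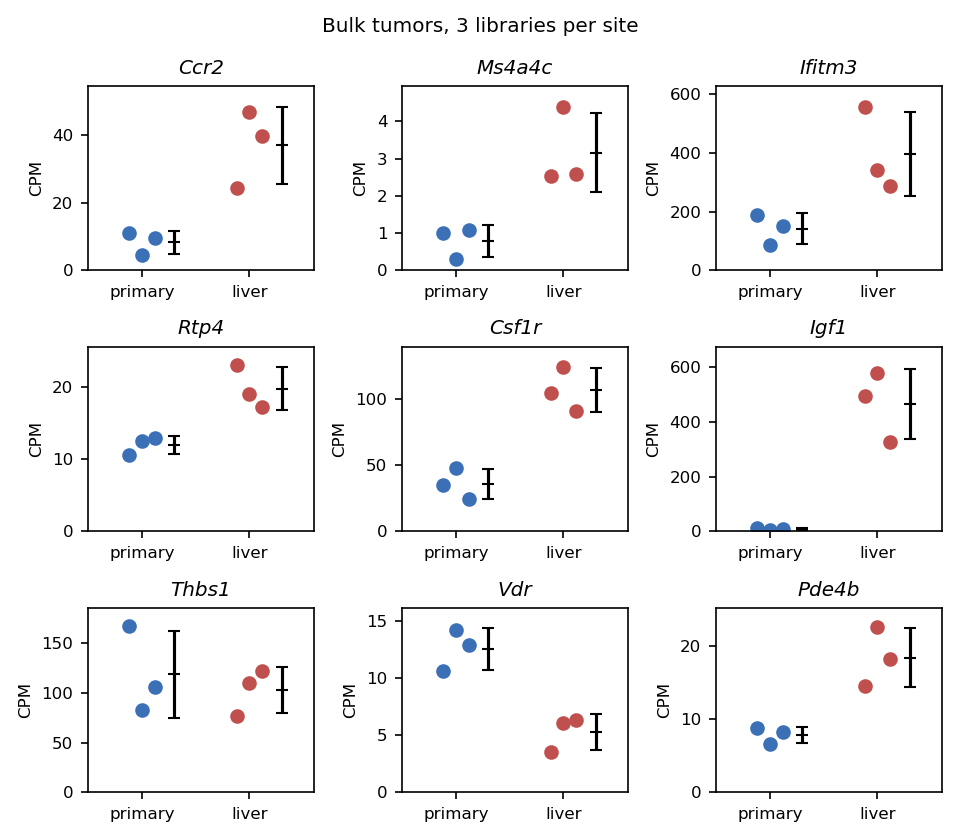
Level of 9 genes in CPM (y axes, from 0) in each of 3 primary (blue) and 3 liver (red) bulk tumors, with the mean and SD in black. The groups are apart for Ccr2, Csf1r and Igf1, overlap for Thbs1, and Pde4b is higher in the liver tumors.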

How the data were processed

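Each single-cell library has UMI counts of 31053 genes in 6794880 barcodes, as the authors deposited them. The bulk table used holds raw read counts per gene deposited by the authors, and FPKM from a table deposited by the authors served 1 alternative (log2 of FPKM + 1). The submitters' processing notes name bcl2fastq, Cell Ranger and mm10. The bulk aligner and counting are not given in the sources used here. The labels name a 3' v2 kit, whose barcode list is shorter than the one in the files.

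Cells had at least 1500 UMIs, 200 genes and at most 10% mitochondrial UMIs. Scrublet marked 5 of 2277 and 1 of 7618 cells, too few to have worked, so no doublets were removed. The libraries share the barcodes of 7 called cells and of 0 low macrophages. UMIs were summed per class, and a gene was compared with at least 20 UMIs in 1 sum. Zero sums were set to 3 UMIs. Clusters used scanpy 1.11.5 and leidenalg 0.10.2 (2000 genes, 20 components, 15 neighbors, resolution 0.6). Bulk counts were fitted in edgeR 4.0.16 (R 4.3.3) with TMM, filterByExpr, group alone, two-sided, Benjamini-Hochberg at 0.05. Samples carry 0 unmapped columns. Nothing says that bulk replicates came from separate mice, so their p-values measure the spread between these libraries.

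The cells, gene lists and tests were chosen with earlier results of these data known. Genes named were the 12 largest ratios in each direction per comparison whose 95% intervals did not overlap (at least 50 CPM between sites), and the 4 most abundant of each list. Others, and the clusters' leading genes, were chosen after their values were seen. Some genes that this rule names are not reported here. On data simulated for the bulk comparison and for the cell sums, 200 of 200 genes changed 4-fold were recovered in each. Only abundant genes were changed, with counting error alone in the cell sums and the same spread for every gene in bulk. Recovery was therefore nearly certain, and it does not cover scarce genes or UMIs held by a few cells.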

Additional observations from a re-analysis of the deposited data

Results flagged for a closer look

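Among the genes chosen for naming, differences between sites that ran in opposite directions in low macrophages and in the other C1q-positive cells were collected. Ratios of low macrophages over the other C1q-positive cells that ran in opposite directions in the libraries were collected too. In each case both counting intervals had to clear a fold limit. Smaller reversals, such as that of Chil3, and genes not chosen for naming are therefore left out. None of them could be tested with 1 library per site. Cxcl10, an interferon-induced chemokine, was 4.46-fold in the liver over the primary library in low macrophages and 0.548-fold in the other C1q-positive cells. A Cxcl10 UMI was seen in 7.26% of liver low macrophages. Stfa2l1, a stefin gene of neutrophils, was 0.286-fold in low macrophages and 6.65-fold in the others. Thbs1 in low macrophages over the other C1q-positive cells was 1.58-fold in the primary and 0.312-fold in the liver library. Bulk groups of 3 are too small for a test of single libraries.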

How the results depend on the processing

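With the limits of Spp1, Arg1 and H2-Ab1 halved, low macrophages were 4.75% of primary and 8.71% of liver C1q-positive cells. The liver share was 22.2% at 3000 UMIs, 22.3% at a C1q minimum of 20 or with cells thinned to 1500 UMIs before the rule, and 22.1% at a C1q minimum of 40. The primary share was 22.2% at 20% mitochondrial UMIs; that limit, C1q 40 and the removal of cycling and Cd5l cells were chosen after seeing the data. Genes higher than in the other C1q-positive cells (18) numbered 6 at 3000 UMIs, 3 at C1q 20, 78 at halved limits, 31 after thinning, 3 without cells carrying markers of other types, 59 by the mean over cells, 3 at 100 UMIs and 5 at C1q 40. The lower genes (103) numbered 46 after thinning, 39 at 100 UMIs and 34 without cycling and Cd5l cells. At 100 UMIs, 498 genes were higher and 570 lower in the liver library. Fewer genes reached that limit than the 20 summed UMIs of the main setting, so all counts at 100 UMIs have a smaller base. A drop in these counts is therefore not by itself a drop in the share of genes.

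Some log2 ratios against the other C1q-positive cells changed sign in the primary library: S100a9 (-0.29) and S100a8 (-0.11) without cells carrying other markers, Trbc1 (-1.38), Nkg7 (-3.12), Cyp26b1 (0.86), Hist1h3c (0.53), Tmeff1 (0.73), Kif4 (0.81) and Fam13a (0.76) at halved limits, Pclaf (0.62) after thinning, and Nusap1 (0.34) and Pclaf (0.66, and 0.024 in liver) without cycling cells. The cause was not tested. Bulk counts ran from 1810 to 3346 higher and from 134 to 1468 lower when 1 library was left out, lowest without liver replicate 2 in each direction, and 415 were lower by limma on FPKM. Lower counts were 606 without primary replicate 3 and 414 without liver replicate 1. Cela2a, at -0.86, ran from -1.47 to 5.37, the latter without primary replicate 2, and was 1.47 with the replicate block. A fit with a replicate block gave 2703 higher and 873 lower, and did not call Rtp4 (edgeR adjusted p = 0.0785), Fcrls or Fcer1g. The labels do not say whether replicate numbers pair the libraries. Correlations between libraries of the same number were -0.18, 0.25 and 0.09, and with 3 libraries per site they cannot settle it. Of single-gene values in cells, 753 of 1008 stayed within their counting interval, and 1514 of 1671 bulk values kept their call. Depth limits genes under 20 UMIs.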
